A study of Homo sapiens with 6 samples.

Results

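The genes described are 10 reductases of small carbonyl and quinone compounds: the aldo-keto reductases AKR1A1, AKR1B1, AKR1B10, AKR1C1, AKR1C2 and AKR1C3, the carbonyl reductases CBR1 and CBR3, and the quinone reductases NQO1 and NQO2. They were taken by symbol, and all 10 were found among the 18126 symbols of each table. The list was chosen by FPKM in these same libraries, with the difference between siTEAD4 and Control in view, so its levels and fold changes are given as a description, with no test. RNA was sequenced on the BGISEQ-500 platform from the human kidney cancer cell line 786-O, of clear cell type. The cells had received either a control transfection (3 libraries, Control) or siRNA directed at TEAD4 (3 libraries, siTEAD4), a transcription factor that works with the coactivator YAP. The headings of the value columns do not match the labels, since "Tead_Inhibitor" heads the 3 siTEAD4 columns and "Vehicle" heads Control 2 and Control 3. The labels were used for grouping, and which treatment was given could not be settled. The labels do not say whether the 3 libraries of a group were separate cultures, so each p-value measures spread between libraries that may be technical only.

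Aldo-keto and carbonyl reductases use NADPH to turn aldehydes and ketones into alcohols, and their substrates include sugars, steroids, prostaglandins, retinal, lipid aldehydes and drugs. NQO1 reduces quinones to hydroquinones in a single step, without the reactive semiquinone in between. AKR1B10, the AKR1C genes and NQO1 are textbook targets of NRF2 (gene NFE2L2), the transcription factor that is held in check by KEAP1 and binds antioxidant response elements, while AKR1B1 is known as aldose reductase, the first enzyme of the polyol pathway, and is induced in kidney cells by hypertonicity through NFAT5.

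Values are FPKM, fragment numbers scaled by transcript length and by library total, as the authors deposited them. They keep no read counts, so the depth behind each value is unknown. Each library listed 15676 to 15857 symbols above 0, and 11411 genes that reached 1 FPKM in 3 or more libraries were tested with limma on log2(FPKM + 1), a scale that understates the change of low genes. At an adjusted p of 0.05, 5123 genes (44.9%) were called, 2982 (26.1%) higher and 2141 (18.8%) lower in siTEAD4, so 58.2% of the calls were higher. With each library rescaled to one median the share of higher calls was 46.9%, and with a TMM-like scaling it was 44.0%. TEAD4 itself had 12.52, 16.99 and 11.28 FPKM in the Control libraries and 8.92, 7.65 and 7.52 FPKM in siTEAD4 (log2 fold change -0.68, limma adjusted p = 0.00521). Of 11 markers of the renal carcinoma line, 8 reached 1 FPKM in every library, among them PAX8, a renal lineage factor, at 76.6 ± 11.1 and 70.2 ± 0.975 FPKM (SD, n = 3 each). LRP2, a proximal tubule receptor, was listed at 0, and CUBN and NDUFA4L2 were below 1 FPKM in all 6. Of the markers of other cell types, 1 of 8 for leukocytes (CD68), 0 of 5 for endothelium, 1 of 6 for hepatocytes (SERPINA1) and 0 of 7 for fibroblasts reached 1 FPKM in every library. Leukocyte PTPRC stayed at 0.42 FPKM or below, endothelial CDH5 at 0.01 FPKM or below and hepatocyte ALB at 0.15 FPKM or below, and DCN (fibroblast) and APOB (hepatocyte) were listed at 0. The summed markers of leukocytes were 27.95 to 39.59 FPKM in Control and 20.45 to 22.59 FPKM in siTEAD4. Those of hepatocytes were 181.92 to 252.87 FPKM and 86.08 to 94.3 FPKM in the same order, and those of fibroblasts 3.18 to 3.78 FPKM and 1.18 to 1.43 FPKM. These 3 sums were lower in siTEAD4. The sum of the renal line markers was lower as well, at 3650.07 to 4226.91 FPKM in Control and 3496.4 to 3627.25 FPKM in siTEAD4. Most of that sum was VIM, whose own groups overlapped. The part of these sums in the results was not tested. The leukocyte sum was lower mainly through CD68 (log2 fold change -0.62) and that of hepatocytes through SERPINA1 (log2 fold change -1.28). For fibroblasts it was mainly LUM, at 1.8 to 2.4 FPKM in Control and 0.67 to 0.75 FPKM in siTEAD4. Next came COL1A1, at 1.12 to 1.27 FPKM and 0.4 to 0.46 FPKM in the same order, and both passed the filter only through Control. Hepatocyte TTR had 3.98 FPKM in siTEAD4 3 and 0.09 FPKM or below in the other libraries. The endothelial sum was 0.17 to 0.28 FPKM throughout.

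Of the 10 reductases, 7 were higher in siTEAD4 and 3 differed little. AKR1B10 was 23.3-fold higher, AKR1C1 6.15-fold, AKR1C2 5.82-fold, NQO1 4.34-fold, AKR1C3 2.99-fold, NQO2 2.51-fold and CBR1 1.76-fold by group means, whereas AKR1A1, AKR1B1 and CBR3 had log2 fold changes between -0.09 and 0.05. In the same 7 genes every siTEAD4 library lay above every Control library, a pattern found in 4009 of the 11411 tested genes (35.1%). By group means, 6 of the 10 were at least 2-fold higher, against 169 (1.48%) of all tested genes. The fit called those 7 and none lower, beside the 26.1% of all tested genes called higher. The rule used this contrast, so nothing is read from these counts. All 10 passed the filter on low values, but AKR1C1 and AKR1C2 would not have passed without their siTEAD4 libraries. RNA from bulk cells cannot tell more cells with a transcript from more transcript per cell.

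**Figure D1:**
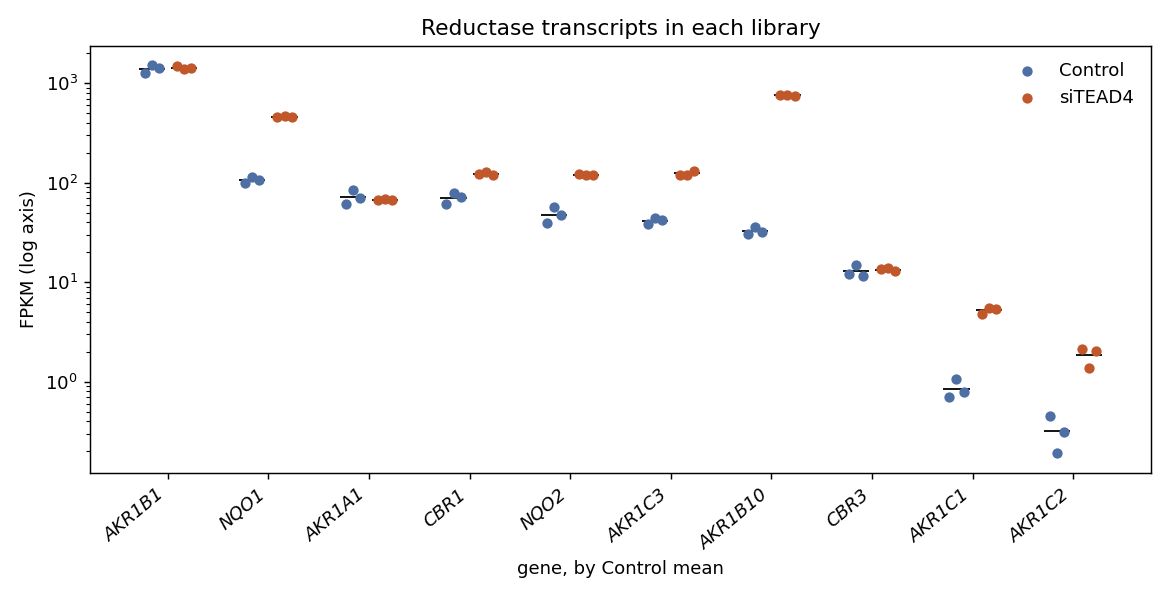
FPKM of the 10 reductases in each library on a log axis, ordered by Control mean, with Control in blue, siTEAD4 in orange and a black line at each group mean (n = 3). The 3 siTEAD4 values of AKR1B10 lie between 752 and 770 FPKM, above NQO1 at 459 to 474 FPKM, while in Control AKR1B10 lies below NQO1; AKR1B1, AKR1A1 and CBR3 overlap between groups.

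The AKR1B genes sit side by side on chromosome 7 (GRCh38, GENCODE release 29). AKR1B1, aldose reductase, which converts glucose to sorbitol, runs on the minus strand at chr7:134442350-134459284. AKR1B10, which reduces retinal and lipid aldehydes and is known from small intestine and several carcinomas, starts 68.3 kb further on at chr7:134527592-134541408 on the plus strand, and AKR1B15, its closest relative, follows after 7.73 kb at chr7:134549136-134579875.

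AKR1B1 was the most abundant of the 10 in every library, with 1266.92, 1520.45 and 1431.97 FPKM in Control and 1491.31, 1407.29 and 1426.49 FPKM in siTEAD4. The groups overlapped, with Control 1 lowest and Control 2 highest, and the log2 fold change was 0.04 ± 0.0997 (SE). It ranked 33 of the 11411 tested genes by mean FPKM in Control and 32 in siTEAD4. AKR1B10 had 30.6, 35.73 and 32.07 FPKM in the Control libraries and 769.96, 770.42 and 752.09 FPKM in siTEAD4. Its groups were far apart, and its log2 fold change of 4.50 ± 0.0819 was the largest of any tested gene on the log2(FPKM + 1) scale, which holds back the changes of low genes. Its rank by mean FPKM went from 2445 to 87. AKR1B15, outside the list, was read at 4.23, 3.54 and 4.09 FPKM in Control and 7.4, 7.64 and 6.89 FPKM in siTEAD4. It rose by a log2 fold change of 0.75 ± 0.0935 (limma adjusted p = 0.000361), less than AKR1B10.

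Reads shared between AKR1B10 and AKR1B15 could have been split in ways not given in the sources used here. Of the 50-base stretches in AKR1B10 transcripts, 11.6% also occur in AKR1B15, and 11.3% of those in AKR1B15 occur in AKR1B10. The FPKM of AKR1B15 over that of AKR1B10 was 0.122 ± 0.0202 in Control and 0.00956 ± 0.000380 in siTEAD4, with no overlap. Summed over both genes, Control held 34.83, 39.27 and 36.16 FPKM and siTEAD4 777.36, 778.06 and 758.98 FPKM, 21.0-fold higher. Against AKR1B1, the level of AKR1B10 went from a ratio of 0.0233 ± 0.000888 to 0.530 ± 0.0158.

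The AKR1C genes form a cluster on chromosome 10. AKR1C1, a 20-alpha-hydroxysteroid dehydrogenase that inactivates progesterone, lies at chr10:4963253-4983283 on the plus strand. AKR1C2, a 3-alpha-hydroxysteroid dehydrogenase that inactivates dihydrotestosterone, lies at chr10:4987400-5018031 on the minus strand, 4.12 kb away. AKR1C3, which makes testosterone from androstenedione and prostaglandin F from prostaglandin D and H precursors, lies at chr10:5035354-5107686 on the plus strand, 17.3 kb beyond. AKR1C4, a liver enzyme of bile acid synthesis, follows after 87.8 kb.

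Sequences around the annotated starts are shown because the AKR1C genes were higher together and are near-copies of each other. They are RefSeq windows on GRCh38.p14, 250 bases before to 50 bases after the start, 5′ to 3′ on the gene's own strand, and 8 of the 10 genes had 1 or more. The first 2 lines show AKR1C1 (chr10:4963165-4963464, plus strand) and AKR1C2 (chr10:5003808-5004107, minus strand), with capitals for bases that, inside the stretch where they align, differ between them or are missing from the other. The window ends outside that stretch are in lower case. The next line is the first of the pair of AKR1C3 starts (chr10:5048531-5048830, plus strand), with a run of letters present in all the AKR1C windows in capitals.
AKR1C1: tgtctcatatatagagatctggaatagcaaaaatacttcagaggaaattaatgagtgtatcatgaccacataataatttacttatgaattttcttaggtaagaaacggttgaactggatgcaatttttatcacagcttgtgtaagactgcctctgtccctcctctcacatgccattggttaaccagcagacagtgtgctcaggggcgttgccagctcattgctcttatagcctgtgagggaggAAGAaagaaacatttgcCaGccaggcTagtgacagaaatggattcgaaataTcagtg
AKR1C2: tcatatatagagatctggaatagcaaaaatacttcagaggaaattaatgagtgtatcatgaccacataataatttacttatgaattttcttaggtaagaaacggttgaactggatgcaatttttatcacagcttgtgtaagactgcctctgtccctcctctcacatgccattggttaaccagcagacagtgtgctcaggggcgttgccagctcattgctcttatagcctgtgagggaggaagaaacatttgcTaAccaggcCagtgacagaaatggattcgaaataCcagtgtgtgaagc
AKR1C3: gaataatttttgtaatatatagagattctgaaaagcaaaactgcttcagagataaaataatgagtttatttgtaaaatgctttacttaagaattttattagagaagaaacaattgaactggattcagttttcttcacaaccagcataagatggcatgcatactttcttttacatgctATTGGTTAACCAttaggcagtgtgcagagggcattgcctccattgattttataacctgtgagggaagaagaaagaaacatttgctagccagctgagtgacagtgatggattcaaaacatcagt

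Over 292 aligned bases the AKR1C1 and AKR1C2 windows were identical at 288 (98.6%), with 4 differing bases and 4 bases in gaps. AKR1C1 was identical to the AKR1C3 windows at 78.0% and 80.4% of aligned bases. All 4 windows hold the run ATTGGTTAACCA, which starts 77 bases before the start of AKR1C1, 81 before that of AKR1C2, and 73 and 86 before those of AKR1C3. Of all 35116 promoter windows in the table, 5 hold this run, and the other belongs to PPFIA2. The run was picked after the windows had been compared, and its presence in near-copies is a description of their shared sequence.

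AKR1C3 was the main transcript of the cluster, with 38.41, 44.61 and 42.26 FPKM in Control and 121.24, 120.86 and 132.98 FPKM in siTEAD4. Its groups were apart, at a log2 fold change of 1.56 ± 0.0851. It held 97.2% ± 0.141 of the summed FPKM of the AKR1C genes in Control and 94.6% ± 0.0556 in siTEAD4. AKR1C1 was low in Control, at 0.7, 1.07 and 0.78 FPKM, and reached 4.76, 5.55 and 5.38 FPKM in siTEAD4, a log2 fold change of 1.75 ± 0.106. AKR1C2 was lower still, at 0.45, 0.19 and 0.31 FPKM in Control and 2.12, 1.38 and 2.03 FPKM in siTEAD4, a log2 fold change of 1.11 ± 0.127. All 3 genes had every siTEAD4 library above every Control library. AKR1C4 was listed at 0.05 FPKM or below in all 6 libraries, and AKR1D1, the steroid 5-beta-reductase, at 0.27 FPKM or below.

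AKR1C1 and AKR1C2 are the pair whose separate values are least certain. Of the 50-base stretches in AKR1C2 transcripts, 47.0% also occur in AKR1C1, and 26.6% of those in AKR1C1 occur in AKR1C2, while AKR1C3 shares 7.61% with AKR1C2. At 100 bases the shares of AKR1C2 and AKR1C1 were 26.8% and 16.1%. The ratio of AKR1C2 to AKR1C1 varied from 0.178 to 0.643 among the Control libraries and from 0.249 to 0.445 among the siTEAD4 libraries, so the groups overlapped. The ratio of AKR1C1 to AKR1C3 did not overlap, at 0.0202 ± 0.00326 in Control and 0.0419 ± 0.00355 in siTEAD4. A sum over the AKR1C genes depends less on how their reads were divided. It was 39.56, 45.87 and 43.4 FPKM in Control and 128.12, 127.79 and 140.44 FPKM in siTEAD4, 3.08-fold higher. AKR1C3 held 97.2% of the sum in Control and 94.6% in siTEAD4, so the sum says little about AKR1C1 and AKR1C2.

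CBR1 and CBR3, short-chain carbonyl reductases, lie 61.7 kb apart on chromosome 21, at chr21:36069941-36073166 and chr21:36134912-36146566, both on the plus strand. CBR1 reduces quinones, prostaglandin E and the anthracycline doxorubicin, and CBR3 is a close relative with a narrower range of substrates. CBR1 had 60.57, 78.19 and 72.51 FPKM in the Control libraries and 123.9, 128.1 and 119.4 FPKM in siTEAD4. Its groups were apart, with a log2 fold change of 0.81 ± 0.101, the smallest of the 7. CBR3 had 12.22, 14.98 and 11.68 FPKM in the Control libraries and 13.43, 13.87 and 12.92 FPKM in siTEAD4. These groups overlapped, and the log2 fold change was 0.05 ± 0.103. The ratio of CBR1 to CBR3 was 5.46 ± 0.660 in Control and 9.23 ± 0.00804 in siTEAD4.

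The whole of CBR1 lies within SETD4 on the opposite strand, a lysine methyltransferase gene with 7.97 ± 0.616 and 8.58 ± 0.336 FPKM (log2 fold change 0.10, limma adjusted p = 0.398). CBR3 shares 35.7% of its 50-base stretches with the antisense gene CBR3-AS1, NQO1 15.0% with the antisense gene AC092115.2, and CBR1 16.6% with AP000688.1, also on the opposite strand. Those 3 were not analysed here, and since the treatment of strand is not given, reads of such pairs cannot be told apart.

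The CBR1 window is shown because it was the only one of the windows for these genes that held the letters TGACNNNGC, the core of an antioxidant response element. It is chr21:36069774-36070073 on the plus strand, and capitals mark the match, which reads in the other direction and starts 159 bases before the annotated start.
CBR1: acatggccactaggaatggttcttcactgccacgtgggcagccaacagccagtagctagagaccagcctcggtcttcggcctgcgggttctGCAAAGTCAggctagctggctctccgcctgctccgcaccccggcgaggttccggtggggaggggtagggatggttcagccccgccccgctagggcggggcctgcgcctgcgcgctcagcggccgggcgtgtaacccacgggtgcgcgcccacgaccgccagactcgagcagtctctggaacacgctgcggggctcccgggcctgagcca

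Both strands of each window were searched. TGACNNNGC was found in 1 of the 8 genes with a window and in 13.3% of all 35116 windows, and TGANTCA, the AP-1 motif, which can overlap an antioxidant response element, in 0 of the 8 and in 7.71% of all. GGAATG, the motif bound by TEAD factors, was found in CBR1 and at the second AKR1C3 start, and in 14.0% of all windows. CCAAT was found in AKR1B1, AKR1C1, AKR1C2 and AKR1C3, and in 34.6% of all windows, and in the AKR1C genes it lies within the shared run named above. A window without a match says only that these letters are not in it.

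NQO1 (chr16:69706996-69726951, minus strand) had 100.21, 114.48 and 106.47 FPKM in the Control libraries and 458.94, 473.68 and 460.68 FPKM in siTEAD4. Its groups were apart, with a log2 fold change of 2.11 ± 0.0800, and its rank by mean FPKM went from 661 to 147. NQO2 (chr6:2987987-3028869, plus strand), a relative that takes its electrons from dihydronicotinamide riboside rather than NADPH, had 39.84, 56.92 and 47.21 FPKM in the Control libraries and 121.65, 119.66 and 120.43 FPKM in siTEAD4. Its log2 fold change was 1.33 ± 0.120, and its groups were apart as well. The ratio of NQO1 to NQO2 was 2.26 ± 0.252 in Control and 3.85 ± 0.0958 in siTEAD4, with no overlap.

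AKR1A1 (chr1:45550543-45570049, plus strand), the aldehyde reductase that also reduces glucuronate, had 61.81, 84.93 and 70.56 FPKM in the Control libraries and 66.62, 69.15 and 67.02 FPKM in siTEAD4. The groups overlapped, with a log2 fold change of -0.09 ± 0.112. None of its 50-base stretches occur without mismatch in another gene.

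**Figure D2:**
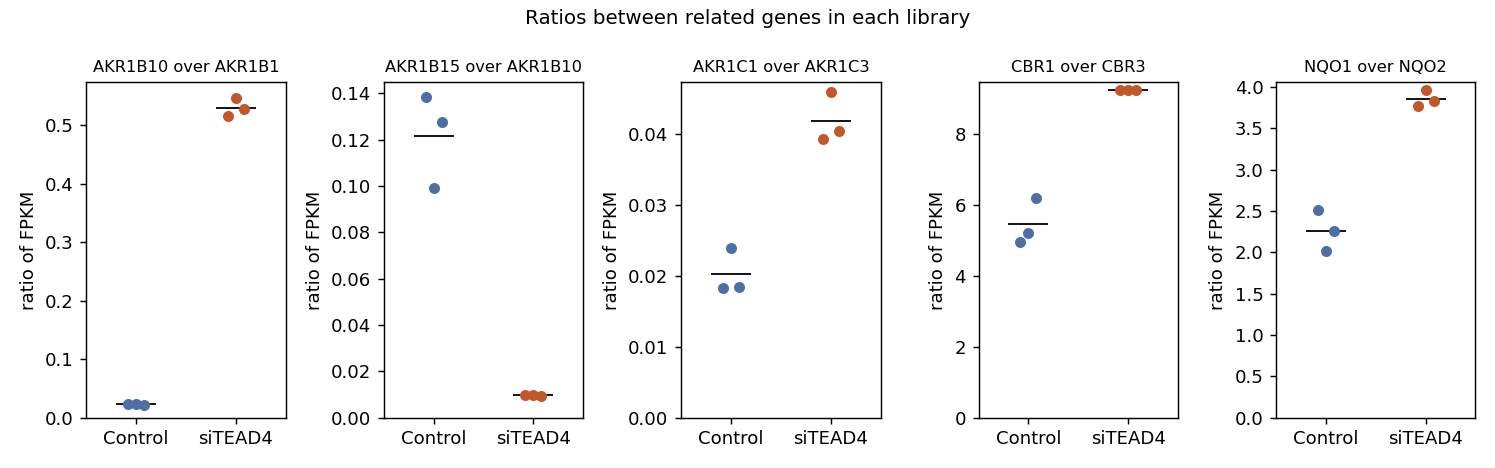
Ratio of the FPKM of related genes in each library, with Control in blue, siTEAD4 in orange and a black line at each mean (n = 3); each axis starts at 0. The groups do not overlap in any of the 5 panels, and AKR1B15 over AKR1B10 is the one that is lower in siTEAD4 (0.122 in Control, 0.00956 in siTEAD4).

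The make-up of the 10 together differed between groups. Their summed FPKM was 1611.73, 1951.55 and 1815.82 in Control and 3173.93, 3109.96 and 3099.42 in siTEAD4, which was 0.388% ± 0.0135 and 0.650% ± 0.0107 of all FPKM in a library. AKR1B1 held 78.5% ± 0.492 of that sum in Control and 46.1% ± 0.869 in siTEAD4. The share of AKR1B10 went from 1.83% ± 0.0662 to 24.4% ± 0.295, and that of NQO1 from 5.98% ± 0.204 to 14.9% ± 0.386. CBR1 kept its place, at 3.92% and 3.96%, with overlapping groups. AKR1B10 and NQO1 traded order, since AKR1B10 over NQO1 was 0.306 ± 0.00550 in Control and 1.65 ± 0.0280 in siTEAD4.

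**Figure D3:**
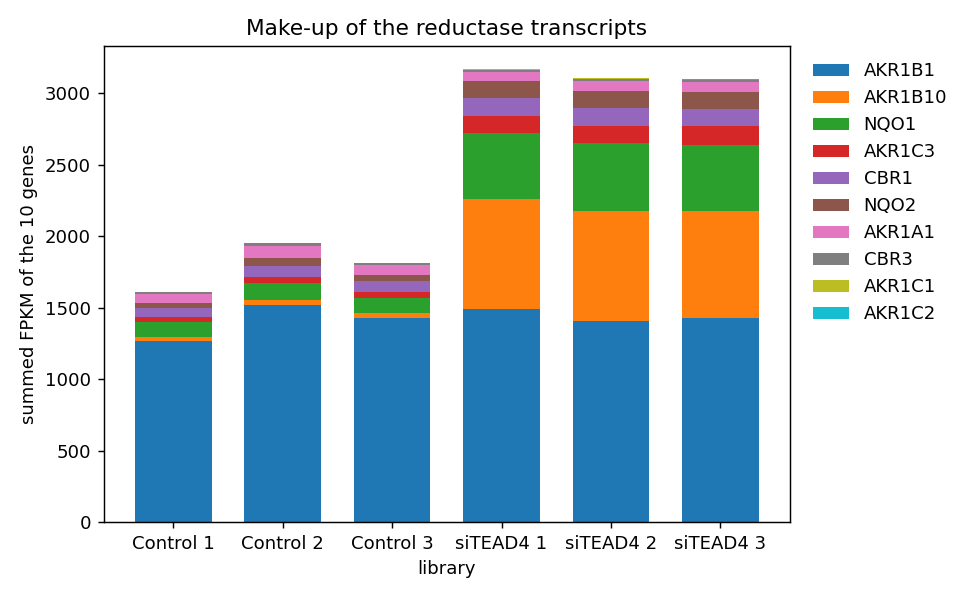
Summed FPKM of the 10 reductases in each library, stacked by gene from a baseline of 0. The AKR1B1 block is of like height in all 6 bars, and the AKR1B10 and NQO1 blocks account for most of the added height in the 3 siTEAD4 bars (sums of 3099 to 3174 FPKM, against 1612 to 1952 FPKM in Control).

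In Control, the order of levels from the top was AKR1B1, NQO1, AKR1A1, CBR1, NQO2, AKR1C3, AKR1B10, CBR3, AKR1C1 and AKR1C2. Neighbours whose libraries overlapped were AKR1A1 with CBR1 and NQO2 with AKR1C3. In siTEAD4 the order was AKR1B1, AKR1B10, NQO1, AKR1C3, CBR1, NQO2, AKR1A1, CBR3, AKR1C1 and AKR1C2, and AKR1C3, CBR1 and NQO2 were neighbours with overlapping libraries. Control 2 was the highest Control library for 9 of the 10 genes, AKR1C2 being the exception, against 42.4% of all tested genes. The Control libraries also varied more: the median coefficient of variation of tested genes was 12.7% in Control and 4.72% in siTEAD4, and for NQO2 it was 17.9% and 0.832%.

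On the log2(FPKM + 1) scale, AKR1B10, NQO1 and AKR1C1 had the largest changes of the 10, and the profiles most like theirs were found over the 6 libraries, by the root mean square difference of each gene's deviations from its Control mean. Nearest to AKR1B10 were HMOX1, heme oxygenase (0.289), ANGPTL4, a secreted lipase inhibitor (0.538), and OSGIN1, an oxidative stress-induced growth inhibitor (1.41). Nearest to NQO1 were IL11, a cytokine (0.0723), HSPA6, a heat shock protein (0.0773), and SRXN1, sulfiredoxin (0.101). Nearest to AKR1C1 were HSPA1B, a heat shock protein with a near-identical copy (0.0929), SQSTM1, the autophagy receptor p62 (0.103), and ASNS, asparagine synthetase (0.109). The measure rests on the log2(FPKM + 1) scale, where adding 1 FPKM shrinks the change of low genes, so near profiles can differ in fold: HSPA6, which passed the filter only through its siTEAD4 libraries, went from 0.153 ± 0.0635 to 4.28 ± 0.222 FPKM, and HSPA1B from 48.5 ± 2.24 to 165 ± 5.65 FPKM.

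Other enzymes of the same kinds moved in both directions. Of 71 related reductases with a row outside the list, 58 were tested, 13 rose and 12 fell (22.4% and 20.7%, beside 26.1% and 18.8% of all tested genes), with a median log2 fold change of 0.03 against 0.09 for all tested genes. The count of 25 called varied from 15 without Control 3 or without siTEAD4 2, and 16 without siTEAD4 1 or siTEAD4 3, to 31 without Control 2. Among the other aldo-keto reductases, 2 of 5 tested rose and 0 fell (40% and 0%, beside 26.1% and 18.8% of all tested genes). KCNAB2, a potassium channel subunit with an aldo-keto reductase fold, rose from 2.08 ± 0.130 to 5.58 ± 0.120 FPKM (log2 fold change 1.10, limma adjusted p = 2.81e-05), and AKR1B15 is described above.

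Of 35 other short-chain carbonyl reductases tested, 5 rose (14.3%) and 11 fell (31.4%), beside 26.1% and 18.8% of all tested genes. BLVRB, the biliverdin reductase that also reduces flavins, rose from 56.9 ± 11.6 to 92.0 ± 4.17 FPKM (log2 fold change 0.70), HSDL1 by 0.45 and the peroxisomal enzyme HSD17B4 by 0.41. HPGD, which inactivates prostaglandins, fell from 2.97 ± 0.173 to 1.03 ± 0.117 FPKM (log2 fold change -0.97), DHRS9 had a log2 fold change of -0.76 and HSD17B11, a lipid droplet enzyme, one of -0.68. HPGD, DHRS9 and HSD17B8, which also fell, would not have passed the filter without their Control libraries. These counts moved with the libraries used, from 3 to 11 higher and from 5 to 10 lower when 1 library was left out, with 11 higher without Control 2, 3 higher without siTEAD4 1, and 5 lower without Control 3, siTEAD4 2 or siTEAD4 3.

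Of 18 other quinone and enone reductases tested, 6 rose (33.3%, beside 26.1% of all tested genes) and 1 fell (5.56%, beside 18.8%). Their median log2 fold change was 0.13 against 0.09. With 1 library left out, 4 to 7 rose and 0 to 2 fell, and 5 rose with one median or the TMM-like scaling. TXNRD1, the selenoenzyme thioredoxin reductase, rose from 80.5 ± 15.6 to 266 ± 9.87 FPKM (log2 fold change 1.73, limma adjusted p = 2.98e-05). PTGR1, which reduces the double bond of prostaglandins and lipid enals, rose from 84.0 ± 4.65 to 223 ± 3.24 FPKM (log2 fold change 1.40), and AIFM2, the ubiquinone reductase FSP1, by 0.49. PTGR2 fell by 0.29 (adjusted p = 0.0415), a call lost without Control 3 or without any 1 siTEAD4 library, and in 2 other alternatives (adjusted p from 0.0590 to 0.149).

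The partners of these enzymes in their pathways gave no single direction. In the polyol pathway, next to the overlapping AKR1B1 values, SORD, which turns sorbitol into fructose, rose by 0.35 (adjusted p = 0.00859; 0.0524 without siTEAD4 3). GLYCTK, glycerate kinase, fell by 0.37 (adjusted p = 0.0200), a call lost without Control 3, without siTEAD4 3 and under quantile normalization (0.0566 to 0.0864). Among 5 tested osmoprotective genes, 1 rose and 2 fell (20% and 40%, beside 26.1% and 18.8% of all tested genes). SLC6A6, the taurine transporter, fell from 108 to 43.0 FPKM (log2 fold change -1.30), and PNPLA6, which makes glycerophosphocholine, had a log2 fold change of -0.89. SLC5A3, the inositol transporter, rose by 0.51 (adjusted p = 0.0378), a call lost without Control 3, without any 1 siTEAD4 library and in 3 other alternatives (0.0543 to 0.115). NFAT5, which drives such genes under hypertonicity and borders NQO1, was not called (log2 fold change 0.16, adjusted p = 0.391).

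Prostaglandin genes beside AKR1C3 and CBR1 split into 3 that rose and 5 that fell of 11 tested. These are 27.3% and 45.5%, beside 26.1% and 18.8% of all tested genes. Among those that fell, HPGD, PTGES and PTGIS would not have passed the filter without their Control libraries. PTGR1 rose as given above, PTGS1, cyclooxygenase 1, rose from 0.573 ± 0.135 to 1.49 ± 0.0306 FPKM (log2 fold change 0.67) and passed the filter only through its siTEAD4 libraries, and PTGES3, a prostaglandin E synthase and HSP90 cochaperone, by 0.41. The prostaglandin transporter SLCO2A1 fell from 9.58 ± 0.685 to 1.54 ± 0.129 FPKM (log2 fold change -2.06), HPGD as above, and the exporter ABCC4 from 9.32 ± 2.03 to 4.61 ± 0.295 FPKM (log2 fold change -0.86). Of 10 tested retinoid genes beside AKR1B10, 1 rose and 3 fell (10% and 30%, beside 26.1% and 18.8% of all tested genes). RDH10, which makes retinal, rose by 0.32 (adjusted p = 0.0137; 0.0561 to 0.0764 without Control 3, siTEAD4 1 or siTEAD4 3), while DHRS9 is given above and the retinal reductase DHRS3 had a log2 fold change of -0.60. RDH11, another retinal reductase, had one of -0.28 (adjusted p = 0.0465), a call lost in 7 alternatives (0.0531 to 0.165), which include leaving out Control 1, Control 3 or any 1 siTEAD4 library.

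NQO1 also belongs to the genes known to be induced by the aryl hydrocarbon receptor. The list drawn around this receptor had 6 tested genes, which include AHR, its partner ARNT and NFE2L2. Of the 6, 0 rose and 2 fell (0% and 33.3%, beside 26.1% and 18.8% of all tested genes). AHRR, ALDH3A1, CYP1A1 and CYP1A2 were below 1 FPKM in every library and were not tested. Every siTEAD4 library lay above every Control library for AHRR (0.227 ± 0.00577 and 0.457 ± 0.0231 FPKM, Control first) and ALDH3A1. For CYP1A1 and CYP1A2 the groups overlapped. CYP1B1, a monooxygenase, fell from 28.7 ± 6.23 to 6.88 ± 0.231 FPKM (log2 fold change -1.89, limma adjusted p = 2.97e-05). UGT1A6, a glucuronosyltransferase that shares exons with other UGT1A genes, fell from 255 ± 10.2 to 161 ± 3.06 FPKM (log2 fold change -0.66). TIPARP was not called (log2 fold change 0.30, limma adjusted p = 0.0692), though every siTEAD4 library lay above every Control library. It was called with a replicate block and without Control 1 (adjusted p from 0.0141 to 0.0439). When 1 library was left out, 0 to 1 of the list rose and 2 to 3 fell. AHR itself was not called (adjusted p = 0.708).

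NRF2 targets outside the 10 mostly rose. Of 27 tested, 23 rose (85.2%) and 2 fell (7.41%), beside 26.1% and 18.8% of all tested genes. The median log2 fold change was 1.09 against 0.09 for all tested genes. Both counts were the same without any 1 library, and 3 fell with the TMM-like scaling. TXNRD1 counts here and among the quinone and enone reductases, and SQSTM1 here and among the NRF2 regulators. The list is made of known targets but was written with results of these libraries known, so it is not independent evidence of a direction. HMOX1 rose from 17.3 ± 1.52 to 312 ± 12.2 FPKM (log2 fold change 4.10, limma adjusted p = 3.70e-08), OSGIN1 from 4.44 ± 1.41 to 29.7 ± 1.74 FPKM (2.52), and SRXN1 from 20.4 ± 1.35 to 83.9 ± 1.54 FPKM (1.99). The glutathione conjugate exporters ABCC1 and ABCC4 fell, ABCC1 with a log2 fold change of -0.68.

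**Figure D4:**
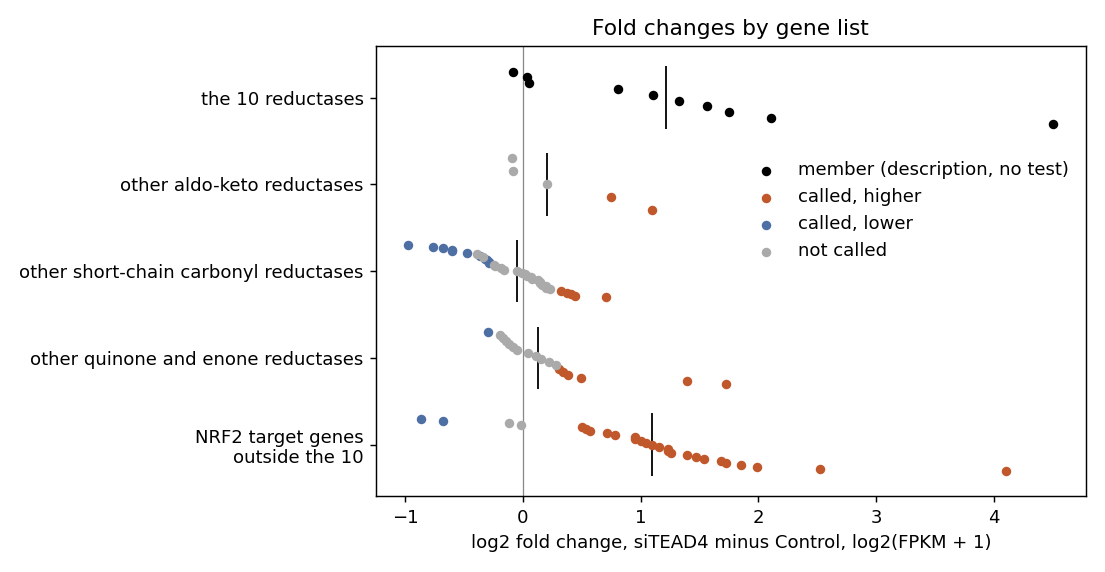
Log2 fold change, siTEAD4 minus Control, on the log2(FPKM + 1) scale for each tested gene of 5 lists, with a black line at each list's median; the 10 reductases are black points and carry no test, and in the other lists orange, blue and grey mark genes called higher, called lower and not called by limma. The medians are 1.22 for the 10 reductases, 0.21, -0.05 and 0.13 for the related reductases and 1.09 for the NRF2 targets outside the 10.

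The transcript of NRF2 itself was not called, at 68.4 FPKM (Control) and 64.4 FPKM (siTEAD4) (NFE2L2, log2 fold change -0.08, limma adjusted p = 0.536). Of 11 tested regulators of NRF2, 6 rose (54.5%) and 2 fell (18.2%), beside 26.1% and 18.8% of all tested genes, and 5 rose when libraries were rescaled to one median or with the TMM-like scaling. SQSTM1, which binds KEAP1, rose from 129 ± 13.3 to 468 ± 16.2 FPKM (log2 fold change 1.86), MAFG, a DNA-binding partner of NRF2, by 0.69, and BACH1, a repressor at the same elements, by 0.62. KEAP1 rose by 0.32 (adjusted p = 0.0296), a call lost in 7 alternatives (0.0512 to 0.120), which include leaving out Control 1, Control 3 or any 1 siTEAD4 library. NFE2L1, a relative of NRF2, fell from 59.7 ± 2.84 to 31.2 ± 0.412 FPKM (log2 fold change -0.92). RBX1, a subunit of the ligase that KEAP1 recruits, fell by 0.29 (adjusted p = 0.0235), a call lost without Control 3 or any 1 siTEAD4 library (0.0610 to 0.0940).

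Genes next to the reductases on the chromosome were looked at after the values above were known. Of 12 tested neighbours, SETD4 and NFAT5 among them, 3 rose and 0 fell, 25.0% against the 26.1% of all tested genes called higher. PRDX1, a peroxiredoxin on the near side of AKR1A1, rose from 952 ± 111 to 1345 ± 60.5 FPKM (log2 fold change 0.50, adjusted p = 0.00560), beside the overlapping values of AKR1A1. BPGM, beyond AKR1B15, rose by 0.45 and NOB1, beyond NQO1, by 0.49. The neighbours of the CBR genes and of NQO2 were not called, RUNX1 and DOP1B having log2 fold changes of -0.03 each, SERPINB6 0.21 and RIPK1 0.08.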

How the data were processed

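The authors deposited 1 table per library with 1 FPKM value (2 decimals) per gene symbol, per the file headers. Control 1 has no unit in its heading, and FPKM was assumed from its likeness to the other tables. The submitters' processing notes name GRCh38. The aligner, the counter, the annotation, and how strand and multiply matching reads were handled, are not given in the sources used. FPKM scales each gene by its length and the library's mapped fragments, so levels can be compared between genes per length, but a change in abundant genes shifts all others. Low values were searched for single-read steps: within 1358 such genes, 18.3% of 4305 ratios came to a whole number with a tolerance of 0.1, against 20% for an even spread, so whole reads could not be recovered and no counting intervals were made. The largest share of equal values between a pair of libraries was 0.684%.

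Groups were taken from the sample titles. Genes that reached 1 FPKM in 3 or more libraries entered a limma fit (version 3.58.1, R 4.3.3) of log2(FPKM + 1) on group alone, with lmFit and trended eBayes, and with Benjamini-Hochberg adjustment over all 11411 tested genes and calls at 0.05. Each ± after a log2 fold change is its standard error, and each ± after a level, ratio or share is an SD over 3 libraries. The fit was tested on simulated data. The 10 genes and all gene lists were chosen with earlier results of these data known. The genes named outside the 10 are their close paralogs, TEAD4, NFE2L2, KEAP1, BACH1, MAFG, NFAT5 and AHR. Up to 3 called genes per direction and list, those with the largest change, are named as well. For each of the 3 members with the largest change, the 3 genes with the most similar profile are also named. The markers, the neighbouring genes, ARNT, TIPARP, PTGES, PTGIS, HSD17B8, AHRR, ALDH3A1, CYP1A1 and CYP1A2 were named after their values were seen. Coordinates and transcripts came from GENCODE release 29 on GRCh38, where all 10 symbols matched, and promoter windows from RefSeq on GRCh38.p14, read with Biopython 1.88.

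The alternatives changed 1 choice each: the pseudocount (0.1 or 5), the filter (none, or 5 FPKM), the scaling (one median, TMM-like, or quantile), eBayes (untrended or robust), a block for the replicate number, each library left out in turn, and paralogs summed.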

Additional observations from a re-analysis of the deposited data

How the results depend on the processing

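Of 11411 tested genes, 5123 were called, 3403 to 6547 when 1 library was left out. It was 3403 without siTEAD4 1 and 6547 without Control 2, and the cause was not tested. Of the 58 related reductases tested, 25 were called, and 15 to 31 when 1 library was left out. Same-numbered libraries had correlations of -0.163, 0.272 and 0.0896 in their deviations from the group means, and unlike-numbered ones -0.367 to 0.390. Deviations within a group of 3 are tied to each other, so these values do not settle whether the numbers pair the libraries. A replicate block gave 5180 calls in all, 23 related reductases and 7 of the 10. Since AKR1B10, AKR1C1, AKR1C2, AKR1C3, CBR1, NQO1 and NQO2 were chosen on this contrast, their direction under the alternatives is no sign of stability. Their log2 fold changes ran from 4.35 to 4.56, 0.81 to 2.50, 0.36 to 2.25, 1.47 to 1.61, 0.71 to 0.89, 2.02 to 2.16 and 1.20 to 1.45 in that order, and the wide ranges of AKR1C1 and AKR1C2 came with pseudocounts of 0.1 and 5. AKR1C2 fell under the filter without any 1 siTEAD4 library, and AKR1C1 and AKR1C2 under a filter of 5 FPKM. The 3 uncalled genes changed sign near 0: leaving out 1 library gave -0.193 to 0.033 for AKR1A1 (0.033 without Control 2), -0.034 (without Control 1) to 0.0976 for AKR1B1 and -0.013 (without Control 3) to 0.154 for CBR3. With one median, the TMM-like scaling and quantile normalization, AKR1B1 was -0.035, -0.052 and -0.0022, and CBR3 -0.017, -0.033 and -0.0095. FPKM carry no counts, so what depth limits cannot be given, and values near or below 1 FPKM (AKR1C1 and AKR1C2 in Control) are the least certain.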
